A study of Arabidopsis thaliana with 60 samples.

Results

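Starch in Arabidopsis thaliana stems is built from ADP-glucose, and the 7 genes described here encode the plastid steps that supply it. They were chosen by name and function, with earlier results of these data known. They comprise the ADP-glucose pyrophosphorylase large subunits APL1 (AT5G19220), APL2 (AT1G27680), APL3 (AT4G39210) and APL4 (AT2G21590). The others are its small subunit APS1 (AT5G48300), the phosphoglucomutase PGM1 (AT5G51820) and the phosphoglucose isomerase PGI1 (AT4G24620). Together they are 7 of the 37967 loci with a gene name in the deposited tables, and all 7 passed the filter on low counts in every comparison.

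RNA from whole stems was sequenced in 5 groups of 3 samples, and the study asked how the translocator gene GPT2 relates to lignin synthesis. In trial 1, the wild type Col-0 was studied with HCT-RNAi, a line that silences the lignin enzyme gene HCT, and with gpt2-1, labelled a mutant of GPT2. In trial 2, a second set of Col-0 samples accompanied 35S GPT2, in which a viral promoter active in most plant cells drives GPT2. The labels name a control trial only for this second Col-0 set. Trial 1 is a name used here for the other groups, and the labels do not say whether these were grown or sequenced together. All plants spent 9 to 10 weeks in 0.5x Noren medium, and the labels give neither further alleles nor agents, the number of independent lines, nor the number of plants in a sample, though the design text calls the samples biological replicates. In bulk stem RNA, fewer cells of a type and less RNA per cell cannot be told apart.

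ADP-glucose pyrophosphorylase joins glucose 1-phosphate and ATP into ADP-glucose and pyrophosphate, and this is regarded as the committed step of starch synthesis. The enzyme pairs a catalytic small subunit with large subunits that set its response to metabolites. Glucose 6-phosphate reaches glucose 1-phosphate through PGM1, and in photosynthetic plastids it comes from fructose 6-phosphate through PGI1, while plastids that import sugar phosphate take it up through translocators such as GPT2. APL1 is best known as the large subunit of leaves, and APL3 and APL4 as sugar-responsive large subunits of sink tissues.

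The labels were checked first. HCT, as TMM-scaled counts per 1000000 reads (CPM, scaled within each trial), stood at 360, 387 and 340 in the trial 1 wild type and at 152, 141 and 137 in HCT-RNAi. GPT2 stood at 1.41, 1.15 and 1.404 CPM in the trial 1 wild type but at 125, 125 and 132 CPM in the libraries labelled gpt2-1, which goes against that label, so they are named here as labelled and no direction below is drawn as an effect of losing GPT2. GPT2 stood at 6.82, 1.01 and 1.07 CPM in the trial 2 wild type and at 293, 276 and 226 CPM in 35S GPT2. Total counts ran from 3827816 to 31713084 per sample, with the smallest in 35S GPT2. Genes that lie under exons of the opposite strand were counted low in the trial 1 wild type and in the libraries labelled gpt2-1, and APL1 is the member this touches most.

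On the TAIR10.1 assembly, APL1 spans chr5:6463824-6466831 on the minus strand with 15 exons, APL2 spans chr1:9631190-9634597 on the plus strand with 12, and APL3 spans chr4:18259547-18263468 on the plus strand with 15. APL4 spans chr2:9238296-9242481 on the plus strand with 14 to 16 exons in its 7 transcripts. APS1 spans chr5:19570238-19572804 on the plus strand with 8 exons, PGM1 spans chr5:21063298-21068327 on the minus strand with 22, and PGI1 spans chr4:12708646-12712825 on the minus strand with 14. Of the exon bases of APL1, 37.2% lie under opposite-strand exons. A long noncoding RNA gene, AT5G19221, covers 602 bases (34.8%) between exons 2 and 15, and the protein-coding gene AT5G19210 covers 43 bases (2.48%) of exon 15. Of the exon bases of APL4, 6.18% lie under AT2G21595, at its 3' end, and the other 5 members share no exon base with the opposite strand. The longest run of bases shared by any pair of member transcripts was 35, between APL3 and APL4, and all other pairs shared at most 17.

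Promoters of 4 genes are shown because their genes mark the contrasts described here: APL1 and APL4 had the largest rises in HCT-RNAi, APL3 fell there, and PGM1 rose there and fell in the libraries labelled gpt2-1. Each line holds the 250 bases before the annotated start, from the RefSeq TAIR10.1 genome, written 5' to 3' on the gene's strand. Capitals mark matches on either strand to the motifs searched, which were the G-box (CACGTG), the evening element (AAAATATCT), the abscisic acid response core ACGTG and the W-box core TTGAC. Every G-box also holds the ACGTG core.
APL1, chr5:6466832-6467081, minus strand: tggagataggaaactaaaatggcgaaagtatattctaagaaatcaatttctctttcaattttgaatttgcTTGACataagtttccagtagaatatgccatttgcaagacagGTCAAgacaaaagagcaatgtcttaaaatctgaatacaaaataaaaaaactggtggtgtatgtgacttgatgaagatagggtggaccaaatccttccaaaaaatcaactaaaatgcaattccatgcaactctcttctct
APL4, chr2:9238046-9238295, plus strand: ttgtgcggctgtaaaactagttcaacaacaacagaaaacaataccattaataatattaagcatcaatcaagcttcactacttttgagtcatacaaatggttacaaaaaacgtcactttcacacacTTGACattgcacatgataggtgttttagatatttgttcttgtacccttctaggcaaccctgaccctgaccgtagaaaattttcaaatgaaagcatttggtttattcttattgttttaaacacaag
APL3, chr4:18259297-18259546, plus strand: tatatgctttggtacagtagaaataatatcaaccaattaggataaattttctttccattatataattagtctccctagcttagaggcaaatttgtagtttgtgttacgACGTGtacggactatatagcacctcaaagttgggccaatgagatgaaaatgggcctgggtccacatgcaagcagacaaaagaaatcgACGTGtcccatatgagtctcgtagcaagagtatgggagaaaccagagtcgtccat
PGM1, chr5:21068328-21068577, minus strand: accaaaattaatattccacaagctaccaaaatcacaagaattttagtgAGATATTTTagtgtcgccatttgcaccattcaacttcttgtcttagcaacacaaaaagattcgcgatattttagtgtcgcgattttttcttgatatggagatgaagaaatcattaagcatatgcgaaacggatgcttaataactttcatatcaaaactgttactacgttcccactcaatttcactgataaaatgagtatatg

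In the window from 250 bases before to 50 bases after the start, APL1 held the W-box core at -180 and -139, and APL4 held it at -125, with ACGTG at 4 and 38 after the start. APL3 held ACGTG at -142 and -55, and PGM1 held the evening element at -202. Of the promoters not printed, APS1 held a W-box core at -242, PGI1 held a G-box at -85, and APL2 held none of these motifs. Over all 27444 annotated promoters, 50.5% held the W-box core, 26.7% ACGTG, 7.68% the G-box and 2.82% the evening element. A match is a description of the letters only.

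In wild type stems, APS1 and APL3 gave the most reads for their length. In the trial 1 wild type, unscaled CPM per kilobase of exon were 74.5 ± 1.12 for APS1 (SD, n = 3), 66.9 ± 1.65 for APL3 and 39.0 ± 1.04 for PGI1. They were 27.0 ± 1.55 for APL1, 12.9 ± 1.47 for PGM1, 2.82 ± 0.34 for APL2 and 1.07 ± 0.12 for APL4, and no neighbours in this order overlapped. The large subunit of sink tissues, APL3, thus stood above the leaf form APL1, and APL2 and APL4 were minor transcripts. Genes under opposite-strand exons were counted low in this set, which touches APL1 but not APL3. In the trial 2 wild type, the samples of APL3 (78.9 ± 11.7 CPM per kilobase) and APS1 (78.2 ± 7.73) overlapped, as did those of PGI1 (27.9 ± 1.32) and PGM1 (27.2 ± 3.06). Between these pairs stood APL1 at 43.4 ± 7.96 CPM per kilobase, and below them APL2 at 8.03 ± 1.39 and APL4 at 1.22 ± 0.43.

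The order changed at its top in HCT-RNAi, where APL1 led at 100.3 ± 0.62 CPM per kilobase. APS1 at 93.0 ± 1.69 and APL3 at 54.3 ± 3.94 came next, with no overlap between these neighbours. How much of the new place of APL1 comes from its low counting in the trial 1 wild type was not tested. PGI1 (34.3 ± 1.07) and PGM1 (21.8 ± 0.43) followed, and APL4 (4.22 ± 0.41) and APL2 (4.14 ± 0.30) overlapped. In the libraries labelled gpt2-1, APS1 (56.8 ± 2.33 CPM per kilobase) and APL3 (49.0 to 51.7 over its samples) led as in wild type, PGI1 (28.4 ± 2.54) overlapped APL1 (27.6 ± 0.85), and PGM1 stood at 8.43 ± 0.09, APL2 at 2.08 ± 0.17 and APL4 at 0.96 ± 0.11. In 35S GPT2, APL3 led at 73.7 ± 6.78, then APS1 at 56.5 ± 10.3 and APL1 at 41.0 ± 5.02. PGI1 (21.8 ± 3.23) and PGM1 (19.9 ± 3.59) overlapped there, and APL2 stood at 7.63 ± 0.83 and APL4 at 0.88 ± 0.11.

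HCT-RNAi was compared with the trial 1 wild type to ask what changes when a lignin enzyme is silenced. All 7 genes changed in edgeR's quasi-likelihood test: APL1, APL2, APL4, APS1 and PGM1 rose, and APL3 and PGI1 fell. APL1 and APL4 moved most, to 3.76-fold and 4.00-fold their wild type levels. Over all 20053 genes tested, 29.2% were higher and 26.5% lower at an adjusted p under 0.05, so that more than every other gene passed, and passing by itself sets these genes little apart. The 7 calls held when each of the 9 samples of trial 1 was left out in turn.

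APL1, the leaf large subunit, stood at 44.4, 42.3 and 46.1 TMM-scaled CPM in the trial 1 wild type and at 167, 164 and 167 in HCT-RNAi. The HCT-RNAi samples lay close together and far above wild type, with a log2 difference of 1.91 (SE 0.05, edgeR adjusted p = 1.12e-23). APL4, the rarest large subunit in wild type, stood at 2.95, 2.46 and 2.98 CPM in the trial 1 wild type and at 10.2, 10.99 and 12.3 in the silenced line, a log2 difference of 2.00 (SE 0.12, edgeR adjusted p = 7.02e-14). APL2 went from 4.95, 6.32 and 5.90 CPM to 8.32, 7.93 and 9.15, again without overlap (log2 fold change 0.57, SE 0.11, edgeR adjusted p = 8.56e-05).

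APL3, the most abundant large subunit in wild type, moved the other way. It stood at 136, 131 and 132 CPM in the trial 1 wild type and at 101, 109 and 117 in HCT-RNAi, and every HCT-RNAi sample was below every wild type sample (log2 fold change -0.29, SE 0.05, edgeR adjusted p = 6.01e-06). The sink-type large subunits APL3 and APL4 therefore changed in opposite directions.

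APS1, the catalytic subunit, stood at 134 CPM in all 3 samples of the trial 1 wild type and at 169, 171 and 165 in HCT-RNAi, a small rise by 0.33 on the log2 scale (SE 0.04, edgeR adjusted p = 8.36e-08). PGM1, which makes glucose 1-phosphate, went from 29.8, 27.7 and 33.6 CPM to 52.9, 52.5 and 50.9 (log2 fold change 0.79, SE 0.06, edgeR adjusted p = 2.84e-12). PGI1, the step before it, stood at 86.9, 87.9 and 89.3 CPM in the trial 1 wild type and at 80.6, 75.2 and 78.3 in HCT-RNAi. Its fall was the smallest of the 7 changes (log2 fold change -0.17, SE 0.05, edgeR adjusted p = 0.00493).

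**Figure D1:**
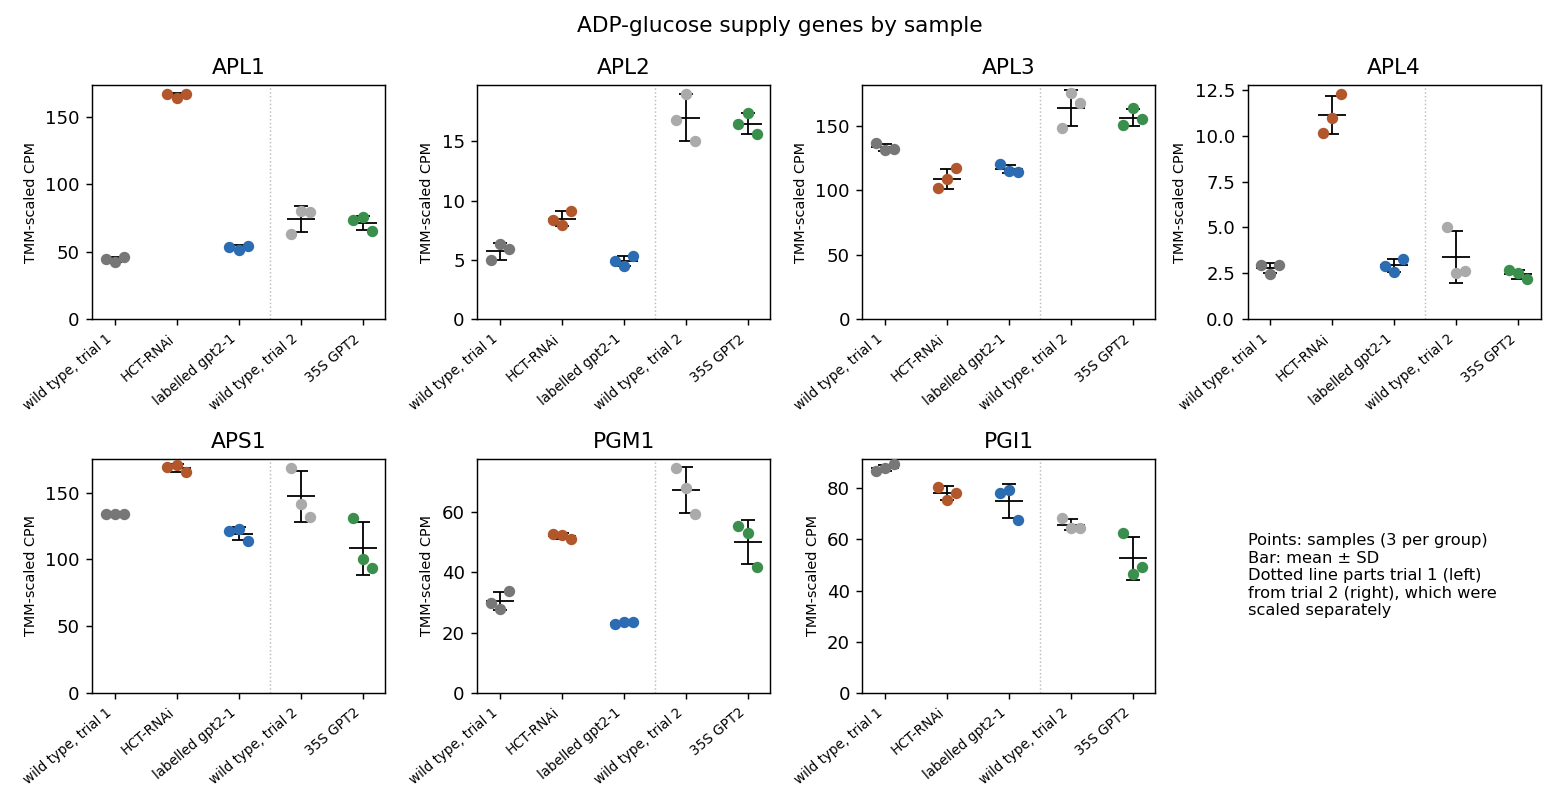
TMM-scaled CPM (vertical axis, from 0, each gene on its own scale) of the 7 genes in each of the 15 samples, by group, with the mean and SD as a bar; trials 1 and 2 were scaled separately. APL1 at 164 to 167 and APL4 at 10.2 to 12.3 in HCT-RNAi lie far above the trial 1 wild type, while APL2 and PGM1 stand higher in the trial 2 wild type than in HCT-RNAi.

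The opposite-strand exons bear on APL1. The genes set beside the members here and below had a mean of at least 5 TMM-scaled CPM in HCT-RNAi. Choosing them on that group can raise their fold changes, so their ranges are a description and not a test. For APL1 there were 159 genes whose overlap was within 5 percentage points of its own. Their median log2 fold change in this comparison was 0.58, with a 5th to 95th percentile range of -0.25 to 3.19. Among 10295 genes without overlap the median was -0.04, with a range of -0.48 to 0.66. Genes covered like APL1 thus stood higher in HCT-RNAi as a group, and the 1.91 of APL1 lies inside their range. How much of the APL1 difference comes from the counting was not tested. The noncoding gene opposite APL1, AT5G19221, had 1, 0 and 0 counts in the trial 1 wild type, 27, 31 and 42 in HCT-RNAi and 0 in each library labelled gpt2-1. It had 0, 35 and 64 counts in the trial 2 wild type and 14, 13 and 15 in 35S GPT2.

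APL4, with its smaller overlap, stood outside the range of the genes like it. Among 1976 genes within 5 percentage points of its overlap the median was 0.02 and the 5th to 95th percentile range -0.39 to 0.69, against 2.00 for APL4. APL4 had a mean of 2.80 TMM-scaled CPM in the trial 1 wild type and 11.1 in HCT-RNAi, so it meets the minimum of 5 only in the group where it is high. How much of the APL4 difference comes from the counting was not tested either. PGM1 has no overlap, and its 0.79 lies above the range of the 10295 genes without any.

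**Figure D2:**
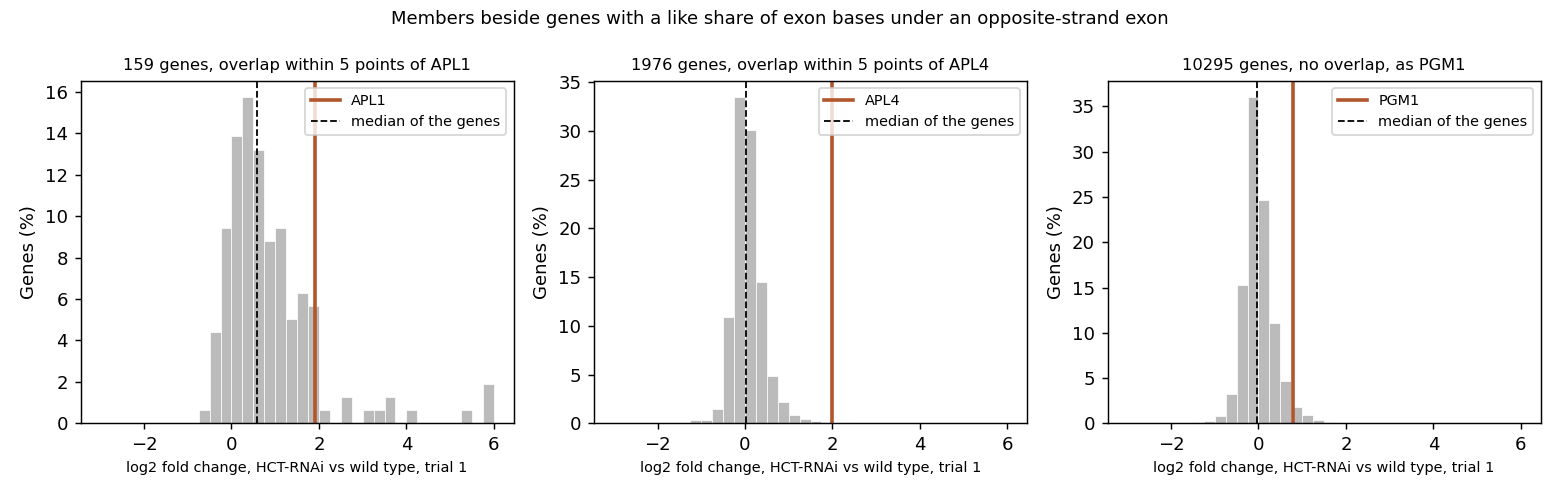
Log2 fold change of HCT-RNAi against the trial 1 wild type (horizontal axis; values beyond it are in the end bins) for genes with a like share of exon bases under opposite-strand exons, as a percent of those genes (vertical axis), for APL1, APL4 and PGM1. The line for APL1 at 1.91 lies within a spread-out distribution with a median of 0.58. The line for APL4 at 2.00 lies beyond the 95th percentile, 0.69, of a narrow one with a median of 0.02. All genes shown were kept by a mean of at least 5 TMM-scaled CPM in HCT-RNAi.

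The trial 2 wild type gives a second reference for these levels, on log2 of unscaled CPM plus 0.5, though trial and line cannot be told apart there. APL1 was 0.68 higher in the trial 2 wild type than in the trial 1 wild type, and the 159 genes covered like it had a median of 0.88. Sample 1 of the trial 2 wild type, with 0 counts of AT5G19221, had the lowest APL1 of its group, 59.9 against 86.6 and 79.1 unscaled CPM, so this reference for APL1 is uneven. APL1 in HCT-RNAi still stood 1.20 above the trial 2 wild type, and APL4 stood 1.65 above it. PGM1 and APL2 gave another picture, being 1.07 and 1.44 higher in the trial 2 wild type than in the trial 1 wild type. Relative to the trial 2 wild type, their HCT-RNAi levels were -0.31 and -0.92. The rises of these 2 genes in HCT-RNAi were thus smaller than the difference between the wild type sets. The same holds for the PGI1 fall of -0.17. PGI1 in the trial 2 wild type was -0.48 relative to the trial 1 wild type, and HCT-RNAi stood 0.30 above the trial 2 wild type. APL3 was 0.24 higher in the trial 2 wild type than in the trial 1 wild type, and APS1 0.07 higher. Relative to the trial 2 wild type, their HCT-RNAi levels were -0.54 and 0.25.

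The same Col-0 samples served as controls for the libraries labelled gpt2-1, so the comparisons of trial 1 share their controls. Here 1 member, APL1, rose and 4, APL3, APS1, PGM1 and PGI1, fell, and APL2 and APL4 did not pass the test. Over all genes tested, 27.4% were higher and 25.8% lower. The changes were small, the largest being PGM1 at 0.77-fold of wild type. Scaling by library size alone lowered the median of all genes by 0.23 in this comparison (a median of -0.23) and split the calls into 3371 higher and 10286 lower, against 5496 and 5181 with TMM.

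PGM1 stood at 23.0, 23.6 and 23.5 CPM in the libraries labelled gpt2-1, all below the 27.7 to 33.6 CPM of wild type (log2 fold change -0.37, SE 0.07, edgeR adjusted p = 2.07e-05). PGI1 stood at 78.1, 79.5 and 67.5 CPM, again below every wild type sample (-0.23, SE 0.05, edgeR adjusted p = 0.000442). Both enzymes that lead to glucose 1-phosphate in the plastid were therefore lower. APL3 stood at 120, 115 and 114 CPM (-0.19, SE 0.05, edgeR adjusted p = 0.00101). APS1 stood at 121, 123 and 114 CPM (-0.17, SE 0.04, edgeR adjusted p = 0.00148), so the catalytic subunit and its most abundant partner were lower by similar amounts.

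APL1 stood at 53.5, 51.2 and 54.3 CPM, above every wild type sample (0.26, SE 0.05, edgeR adjusted p = 4.92e-05), but with library size alone the value was 0.04, short of the threshold. The trial 1 wild type and the libraries labelled gpt2-1 are both sets in which genes under opposite-strand exons were counted low. APL2 stood at 4.95, 4.51 and 5.35 CPM, overlapping wild type, with a log2 fold change of -0.21 and a 95% interval of -0.47 to 0.05. With library size alone APL2 passed, at -0.43. APL4 stood at 2.92, 2.59 and 3.29 CPM, with a log2 fold change of 0.08 and an interval of -0.25 to 0.41. With library size alone it was -0.14, so no direction is given for APL4.

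HCT-RNAi and the libraries labelled gpt2-1 also differed from each other. APL1 (log2 fold change 1.65), APL4 (1.92), PGM1 (1.16), APL2 (0.78) and APS1 (0.50) were higher in HCT-RNAi in edgeR's test. APL3 (-0.10, edgeR adjusted p = 0.0723) and PGI1 (0.06, edgeR adjusted p = 0.328) did not pass. APL3 was called in opposite directions under other scalings: it passed at -0.11 with RLE size factors (edgeR adjusted p = 0.0436) and at 0.12 with library size alone (edgeR adjusted p = 0.0285), and leaving out HCT-RNAi replicate 3 gave -0.15, which passed. No direction is given for it here. PGI1 passed at 0.27 with library size alone. Over all genes, 35.3% were higher and 32.8% lower, or 7088 and 6586 genes, against 10706 and 4195 with library size alone, which moved the median of all genes to 0.25. PGM1 is the member that moved in opposite directions in these lines, 0.79 in HCT-RNAi and -0.37 in the libraries labelled gpt2-1, and APS1 did so with smaller changes of 0.33 and -0.17.

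35S GPT2 was compared with the trial 2 wild type to ask what changes when the translocator is overexpressed. None of the 7 genes passed edgeR's test, 2 of them (APS1 and PGM1) had an unadjusted p under 0.05, and DESeq2 called 0. The share of all genes with such an unadjusted p is not given here. Over all 18364 genes tested 2.52% were called, 462 genes, so few calls were made in this trial at all. With the sample number as a replicate block, 6.01% of genes were called, 1103, and 1 member, APS1, passed.

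APS1 stood at 169, 141 and 132 CPM in the trial 2 wild type and at 131, 101 and 93.6 in 35S GPT2. All 35S GPT2 samples lay below all wild type samples, the nearest pair being 132 and 131 CPM, for a log2 difference of -0.44 (SE 0.18, edgeR adjusted p = 0.304). With the replicate block it was -0.45 (SE 0.11, edgeR adjusted p = 0.037). PGM1 stood at 74.8, 68.0 and 59.3 CPM against 55.4, 53.0 and 41.7, without overlap (-0.43, 95% interval -0.81 to -0.05, edgeR adjusted p = 0.304, and 0.0732 with the block). PGI1 stood at 68.4, 64.6 and 64.4 CPM against 62.3, 46.5 and 49.1, also without overlap (-0.31, interval -0.67 to 0.04, edgeR adjusted p = 0.444). Each of these 3 genes was lower in 35S GPT2 than in the same-numbered wild type sample in 3 of 3 pairs. The share of all genes that went one way in 3 pairs, or did not overlap, is not given here. With 3 samples per group such patterns are no test, and none of the 3 genes passed without the block.

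The large subunits overlapped between 35S GPT2 and its wild type. APL1 stood at 63.2, 79.99 and 79.3 CPM in the trial 2 wild type and at 73.3, 75.7 and 65.7 in 35S GPT2 (-0.06, interval -0.41 to 0.29). APL3 stood at 148, 175 and 168 CPM against 150, 163 and 155 (-0.07, interval -0.39 to 0.25). These intervals leave room for changes of the size seen in the libraries labelled gpt2-1, but not for a rise of APL1 like the one in HCT-RNAi. That rise was measured against a wild type in which genes covered like APL1 were counted low. Leaving out each sample gave APL1 -0.17 to -0.01 in 35S GPT2. APL2 stood at 16.8, 19.0 and 15.1 CPM against 16.4, 17.4 and 15.6 (-0.05, interval -0.50 to 0.41). APL4 stood at 5.01, 2.53 and 2.62 CPM against 2.68, 2.49 and 2.19 (-0.42, interval -1.51 to 0.68), and it rested on only 10 to 83 counts per sample. The APL4 value was -0.085 without the trial 2 wild type replicate 1, which held 25 counts, and -0.60 without replicate 2 of that group, so no size is given for it.

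**Figure D3:**
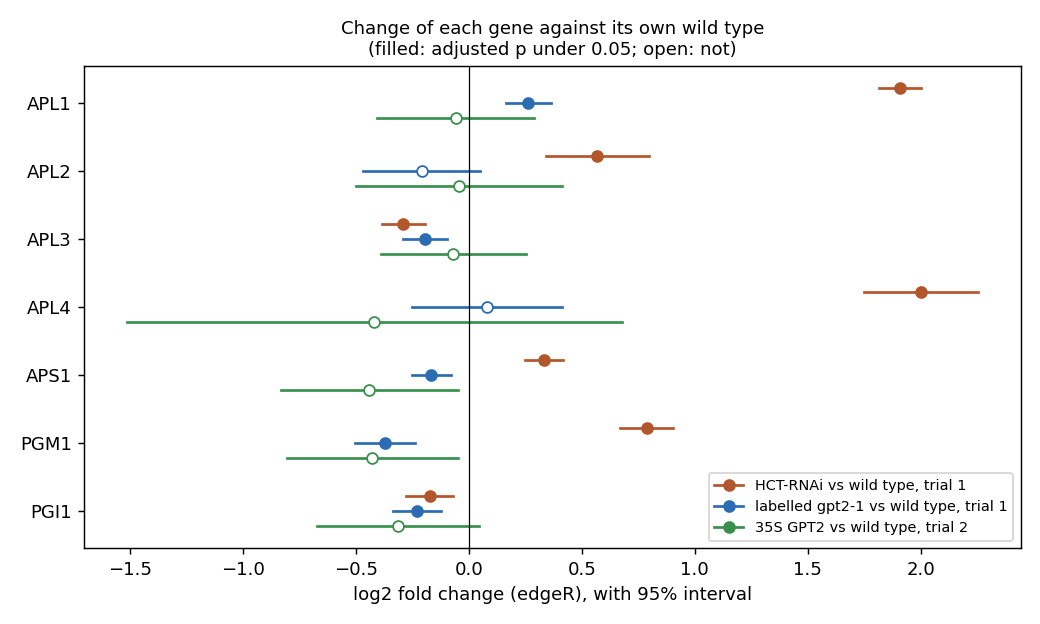
Log2 fold change (horizontal axis) with its 95% interval for each gene in HCT-RNAi, the libraries labelled gpt2-1 and 35S GPT2, each against its own wild type; filled points passed the test at an adjusted p under 0.05. APL1 and APL4 in HCT-RNAi stand near 2 (1.91 and 2.00), while the intervals of 35S GPT2 are wide, from -1.51 to 0.68 for APL4.

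Whether the 35S GPT2 effect differed from that of the libraries labelled gpt2-1 was tested in a fit of all 15 samples. None of the 7 genes passed edgeR's test, 1 (APL1) had an unadjusted p under 0.05, and DESeq2 called 1, also APL1, while 22.3% of all 20645 genes were called. The APL1 difference was -0.38 (SE 0.14, edgeR adjusted p = 0.0547). With the replicate block, APL1 (-0.37, edgeR adjusted p = 0.0264) and APS1 (-0.34, edgeR adjusted p = 0.00801) passed, beside 6432 of 20645 over all genes. These are differences of 2 effects: with the block, APL1 in 35S GPT2 against its own wild type was -0.05 (edgeR adjusted p = 0.868), beside the 0.26 of the libraries labelled gpt2-1. With library size alone the APL1 difference was -0.14 and that of APS1 -0.073, and neither passed. RLE size factors let APL1 pass, at -0.40. Leaving out the trial 2 wild type replicate 1 or 35S GPT2 replicate 2 let APL1 pass, at -0.47 and -0.41. Leaving out 35S GPT2 replicate 1 let APS1 pass, at -0.49.

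The makeup of the large subunit transcripts was described per sample, as shares of their summed CPM per kilobase. APL3 and APL4 together took 70.2%, 69.8% and 68.5% in the trial 1 wild type and 34.1%, 36.1% and 37.4% in HCT-RNAi, where APL1 took 59.97% to 63.3% against 26.9% to 28.6% in wild type. In the libraries labelled gpt2-1, APL3 and APL4 took 63.6%, 63.7% and 62.2%. In both comparisons the groups did not overlap, and the two-sided exact permutation p was 0.1, the smallest that 3 against 3 samples allow. In the trial 2 wild type the pair took 61.95%, 60.5% and 60.5%, and in 35S GPT2 59.2%, 60.3% and 62.3% (exact permutation p = 0.8). The HCT-RNAi mean of 35.9% ± 1.64 also lay below the 61.0% ± 0.86 of the trial 2 wild type. These shares rest on APL1: without it, APL3 and APL4 differed by -2.63 percentage points in HCT-RNAi and by 0.07 in the libraries labelled gpt2-1. Genes covered like APL1 were counted low in the trial 1 wild type and the libraries labelled gpt2-1. How much this moved the shares, and the ratios to APS1 below, was not tested.

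Summed large subunit transcripts per length exceeded APS1 in every sample. The log2 ratio was 0.39 ± 0.03 in the trial 1 wild type, 0.81 ± 0.06 in HCT-RNAi and 0.51 ± 0.07 in the libraries labelled gpt2-1 (exact permutation p = 0.1 for each line). Without APL1 the differences turned to -0.50 in HCT-RNAi and -0.02 in the libraries labelled gpt2-1. The ratio was 0.74 ± 0.31 in the trial 2 wild type and 1.14 ± 0.27 in 35S GPT2 (exact permutation p = 0.3), and these groups overlapped. Within same-numbered pairs it was 0.389 in wild type and 0.830 in 35S GPT2, then 0.904 and 1.299, then 0.941 and 1.281, higher in 35S GPT2 in 3 of 3 pairs (exact paired permutation p = 0.25, the smallest that 3 pairs allow). The mean difference was 0.39, and 0.21 without the trial 2 wild type replicate 1. The log2 ratio of PGM1 to PGI1 per length was -1.61 ± 0.13 in the trial 1 wild type and -0.65 ± 0.06 in HCT-RNAi, and the samples did not overlap. In the trial 2 wild type it was -0.04 ± 0.13, so the isomerase and the mutase stood in different proportion in the wild type sets too.

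**Figure D4:**
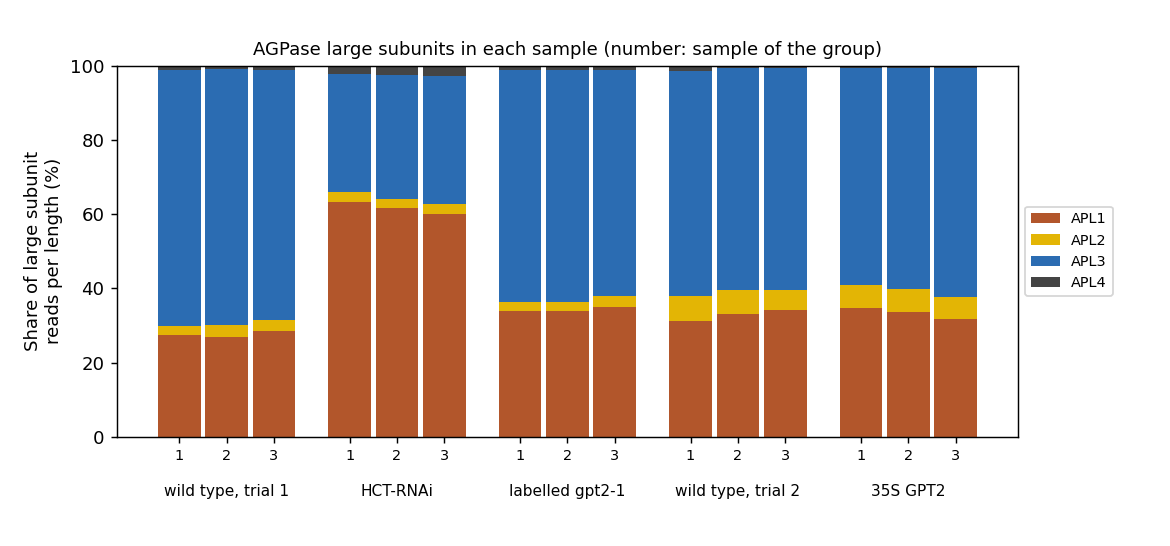
Share of each large subunit in the summed CPM per kilobase of APL1 to APL4 (vertical axis, percent) in each of the 15 samples, by group. APL1 takes 59.97% to 63.3% in the HCT-RNAi samples and at most 35.1% in all others, and APL2 and APL4 stay thin bands throughout.

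Genes around this pathway were read from lists by role. Over all genes tested, 29.2% were higher and 26.5% lower in HCT-RNAi. In the libraries labelled gpt2-1, 27.4% were higher and 25.8% lower. Each list count below is to be read beside these shares. With library size alone, 3371 of 20053 genes were higher and 10286 lower in the libraries labelled gpt2-1. In 35S GPT2, 2.52% of all genes were called. For starch assembly (synthases, branching and debranching enzymes), 8 of 11 rose and 1 fell in HCT-RNAi, with a median log2 fold change of 0.47 against 0.00 over all genes tested. The branching enzyme SBE2.1 rose by 0.94, the isoamylase ISA1 by 0.83 and the granule-bound starch synthase GBSS1 by 0.83, and 22.8% of the exon bases of ISA1 lie under opposite-strand exons. Among the same genes in the libraries labelled gpt2-1, 1 of 11, GBSS1 (1.06), rose and 4 fell, among them SBE2.1 (-0.80) and SS4 (-0.40), a synthase linked to granule initiation. That count of 4 of 11 stands beside 25.8% of all genes lower, and with library size alone it was 7, with 1 higher. In 35S GPT2, edgeR called 0 of 11, with 5 at an unadjusted p under 0.05, all lower. DESeq2 and edgeR with the replicate block each called 3 lower. Over all genes, DESeq2 called 410 of 23875 lower and the block 486 of 18364. The share of all genes at an unadjusted p under 0.05 is not given here.

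Starch degradation genes went with the assembly genes in HCT-RNAi: 11 of 14 rose and 1 fell, with a median of 0.55. Over all genes there, 29.2% were higher and 26.5% lower. The plastid phosphorylase PHS1 rose by 0.96, the cytosolic glucanotransferase DPE2 by 0.80 and the cytosolic phosphorylase PHS2 by 0.66. Of the 14 in the libraries labelled gpt2-1, 2 rose and 11 fell, beside 27.4% and 25.8% of all genes, with a median of -0.57. The beta-amylase BAM1 was among those that rose, at 1.41, and PHS1 (-0.99) and PHS2 (-0.88) were among those that fell. In 35S GPT2, edgeR called 0 of 14, with 5 at an unadjusted p under 0.05, all lower. DESeq2 and edgeR with the replicate block each called 4 lower, beside 410 of 23875 and 486 of 18364 over all genes.

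For plastid import and pyrophosphate removal, 3 of 5 genes rose in HCT-RNAi, GPT2 (2.61), the plastid pyrophosphatase PPA6 (0.67), which removes the by-product of ADP-glucose synthesis, and the ATP carrier NTT2 (0.22). NTT1, the other ATP carrier, fell (-0.34). Over all genes there, 29.2% were higher and 26.5% lower. In the libraries labelled gpt2-1, GPT2 (6.59), NTT2 (0.21) and PPA6 (0.18) rose and GPT1 (-0.42), the second glucose 6-phosphate translocator, fell. Of all genes, 27.4% were higher and 25.8% lower in that comparison. With library size alone NTT2 and PPA6 turned to -0.02 and -0.04, and 1 gene of the 5 rose and 2 fell. Among all 20053 genes that scaling gave 3371 higher and 10286 lower. In 35S GPT2 only GPT2 itself (7.05) passed among these 5.

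For the cytosolic hexose phosphate and UDP-glucose enzymes, 4 of 9 rose and 1 fell in HCT-RNAi, with a median of -0.01 against 0.00 over all genes, of which 29.2% were higher and 26.5% lower. Scaled by library size alone, 3 rose and 1 fell. The sucrose synthase SUS3 rose by 2.03, the cytosolic phosphoglucomutase PGM3 by 0.52 and the UDP-glucose pyrophosphorylase UGP1 by 0.42. In the libraries labelled gpt2-1, 2 rose and 4 fell, beside 27.4% and 25.8% of all genes. SUS1 was at -0.80, PGM3 at -0.34 and the cytosolic isomerase cPGI at 0.31. Under library size alone 1 rose and 6 fell, and cPGI was 0.09 and did not pass. PGM3 was the 1 of 9 that passed in 35S GPT2, where it rose by 0.81 (SE 0.15, edgeR adjusted p = 0.0189), while the plastid enzyme PGM1 had -0.43 and did not pass.

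For the regulators of the enzyme, all 4 rose in HCT-RNAi, where 29.2% of all genes were higher and 26.5% lower. Among them were TPS1 (0.72), which makes the sucrose signal trehalose 6-phosphate, and TRXF1 (0.62) and NTRC (0.26), which activate the enzyme by reducing APS1. Of their exon bases, 9.89%, 10.6% and 4.63% lie under opposite-strand exons. In the libraries labelled gpt2-1, 1 of 4, TPS1 (0.23), rose and 0 fell, beside 27.4% and 25.8% of all genes. With library size alone 0 rose and 3 fell: TPS1 was 0.01 and did not pass, while NTRC (-0.21), TRXF1 (-0.18) and TRXF2 (-0.17) passed. That scaling gave 3371 higher and 10286 lower among all 20053 genes. In 35S GPT2, edgeR and DESeq2 called 0 of 4, with 1 at an unadjusted p under 0.05. With the replicate block 1 was called lower, beside 486 of 18364 over all genes.

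**Figure D5:**
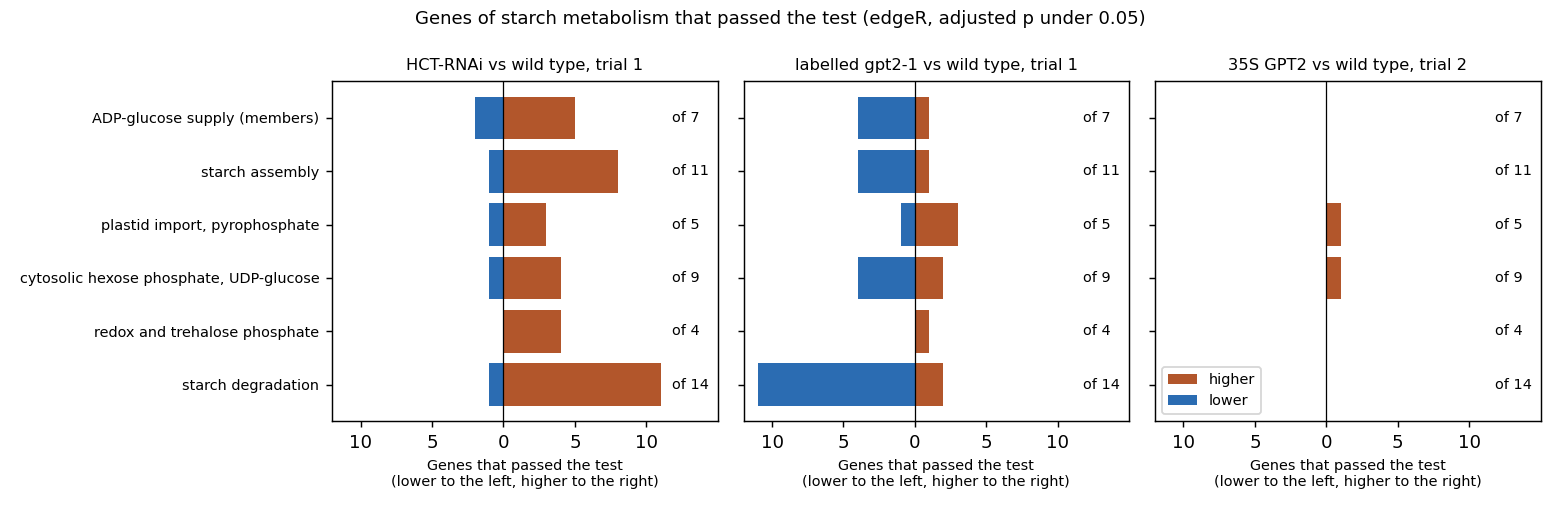
Number of genes that passed edgeR's test (horizontal axis, lower to the left and higher to the right of 0) in each pathway list, for HCT-RNAi, the libraries labelled gpt2-1 and 35S GPT2 against their own wild types; the number tested is at the right. In starch degradation 11 of 14 genes were higher in HCT-RNAi and 11 of 14 lower in the libraries labelled gpt2-1; with library size alone these were 11 and 12.

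Likeness was measured as the root mean square difference of mean-centred log2 CPM over the 9 samples of trial 1, among 14142 genes with at least 5 CPM on average. The genes nearest to APL4 were APL1 (0.120) and AT1G04040 (0.122). Of their exon bases, 37.2% and 22.5% lie under opposite-strand exons. Such genes were counted low in the trial 1 wild type and the libraries labelled gpt2-1, and the part of this in the likeness was not tested. The nearest to APL1 were AT4G17390 (0.084) and EHB1 (0.095). PGM1 was nearest to PG1 (0.054) and to DPE2 (0.060), the glucanotransferase that handles maltose from starch. APS1 was nearest to MSR1 (0.032) and IQD31 (0.035), APL3 to HDG1 (0.044) and AT4G29260 (0.044), PGI1 to SNC4 (0.034) and CSI1 (0.037), and APL2 to MSL10 (0.050) and ABCD2 (0.068).

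Cell type markers moved in some comparisons, and their part in the changes above was not tested. Over all genes, 29.2% were higher and 26.5% lower in HCT-RNAi, and 27.4% and 25.8% in the libraries labelled gpt2-1. In 35S GPT2, 2.52% were called, so counts from such short lists say little by themselves. Green tissue markers (RBCS1A, LHCB1.3, LHCB2.1, LHCA1) had 3 of 4 higher and 1 lower in HCT-RNAi, with a summed level of 15103 to 15527 TMM-scaled CPM against 11392 to 13510.0 in the trial 1 wild type. Of these markers 3 of 4 were lower in the libraries labelled gpt2-1, with sums of 11420 to 11667. Cambium markers were 2 of 2 higher in HCT-RNAi (123 to 135 against 103 to 107 CPM) and 2 of 2 lower in the libraries labelled gpt2-1 (55.3 to 65.1). There, 3 of 3 xylem (242 to 257 against 352 to 374 CPM), 3 of 3 phloem (354 to 381 against 408 to 444) and 2 of 2 starch sheath markers (25.3 to 29.96 against 36.3 to 41.6) were lower too. In HCT-RNAi, 1 of 3 xylem markers was higher, XCP1 (0.50), and 2 were lower, XCP2 (-0.21) and NST3 (-0.39), with sums of 328 to 349 CPM. Of the phloem markers there, 1 of 3 was higher and 1 lower (389 to 407 CPM). The epidermis markers split in both lines: CER6, a wax synthesis gene, was lower (-0.69 in HCT-RNAi and -0.92 in the libraries labelled gpt2-1) and PDF1 was higher (1.67 and 1.43). Their summed level was 741 to 779 CPM in the trial 1 wild type, 474 to 487 in HCT-RNAi and 394 to 428 in the libraries labelled gpt2-1. In 35S GPT2, 3 of 3 xylem and fibre markers were higher (567 to 641 against 246 to 328 CPM), or 2 of 3 with library size alone. No gene of the other marker lists passed edgeR's test there, though the green marker LHCB2.1 did with the replicate block (0.76, edgeR adjusted p = 0.00326, against 0.104 without it), and DESeq2 also called 1 green marker higher. No marker list was at 0 in any group.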

How the data were processed

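Per the labels, the TruSeq stranded mRNA method was used. Whole-number read counts per gene, not normalized, were deposited, and STAR, DESeq2 and TAIR10 are named in the submitters' processing notes. The counting tool and its strand setting are given in no source used here. The 60 sequencing records share 15 tables of 38186 rows, and 219 rows without a gene name (at most 0.00117% of the counts) were left out. In 5 tables (the trial 2 wild type, and 35S GPT2 samples 2 and 3) the counts were read in the row order of the first 35S GPT2 table, which raised the Spearman correlation across genes with the first Col-0 sample from 0.101 to 0.112 up to 0.884 to 0.925. As deposited, 1 row with at least 20 counts in each trial 1 wild type sample was identical in both Col-0 sets, the row labelled GPT2. After the reordering its counts fall on PGD1, which was left out of the fits that hold trial 2 samples.

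Counts were tested with edgeR 4.0.16 (R 4.3.3), with TMM, filterByExpr, the quasi-likelihood F test and Benjamini-Hochberg adjustment over all genes. Trial 1 was 1 fit of 9 samples, trial 2 a fit of 6, and the difference of effects a fit of 15. The fit was tested on simulated data. Per-sample shares had exact permutation tests. Same-numbered samples of trial 2 deviated together (correlations 0.218, 0.432 and 0.322), so blocked values are given where they change a call. Named genes were the 7 members, HCT and GPT2, the up to 3 members of each other list with the smallest p among those that passed, and the 2 nearest genes by likeness. Alternatives were RLE size factors, library size alone, DESeq2 1.42.0, no count filter, the block, genes without opposite-strand overlap, the gene labels as deposited, the compared groups alone, and each sample left out. Members and lists were chosen with earlier results of these data known. Sequences and exons are from RefSeq TAIR10.1.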

Additional observations from a re-analysis of the deposited data

How the results depend on the processing

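All 110 alternative values for the 7 genes in HCT-RNAi against the trial 1 wild type kept their direction and their side of the threshold, under the alternatives run. The fit of genes without opposite-strand overlap left out APL1 and APL4. No alternative therefore addressed how the counting under opposite-strand exons bears on these genes. Over all 5 comparisons, 537 such values kept both, 12 newly passed, 1 no longer passed and 16 changed sign.

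Counts of genes called moved as follows. In HCT-RNAi, 7392 genes were called among those without opposite-strand overlap, where fewer genes were tested. In 35S GPT2 against the trial 2 wild type, DESeq2 called 922 and the replicate block 1103, and leaving out each sample gave 110 to 674. The gene labels as deposited gave 0 there and 0 for the difference of effects. With the replicate block 1 member passed in 35S GPT2 and 2 in the difference of effects, where RLE factors and DESeq2 each gave 1 and leaving out each sample gave 0 to 1. Over all genes tested, the block called 1103 of 18364 in 35S GPT2 and 6432 of 20645 in the difference of effects. HCT-RNAi against the libraries labelled gpt2-1 had 3 members called among the 5 without overlap.

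The APL3 and APL4 share turned to 0.066 without APL1 in the libraries labelled gpt2-1, and in 35S GPT2 leaving out each sample gave -1.25 to 0.31 percentage points. Without APL1 the log2 ratio to APS1 differed by -0.50 in HCT-RNAi and -0.024 in the libraries labelled gpt2-1.

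Among single genes, library size alone gave APL4 -0.14 in the libraries labelled gpt2-1 and APL3 0.12 in HCT-RNAi against them, and in the difference of effects PGM1 0.15 and PGI1 0.11. Leaving out each sample gave APL4 -0.018 to 0.16 in the libraries labelled gpt2-1, where leaving out the trial 1 wild type replicate 2 or gpt2-1 replicate 3 turned its sign. It gave APL2 -0.13 to 0.043 in 35S GPT2, PGI1 -0.014 to 0.10 in HCT-RNAi against the libraries labelled gpt2-1, and PGM1 -0.19 to 0.029 in the difference of effects. With labels as deposited, APL1 was 1.13 and APS1 1.70 in 35S GPT2, and in the difference of effects APL1 was 0.80, APL4 6.995, APS1 1.87, PGM1 11.79 and PGI1 11.81, since other genes' counts then stand in these rows. The cause of the other shifts was not tested.

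In trial 1 same-numbered samples did not deviate together (correlations -0.10 to 0.02), and the replicate block called 10945 genes in HCT-RNAi against 11167 and changed no call of a member there. APL4 rested on 10 to 83 counts per sample in trial 2, and leaving out each sample moved it from -0.60 to -0.085 in 35S GPT2. Same-group samples differed there by 10.2 to 33.4 chi-square units per degree of freedom, against 1.95 to 5.34 in trial 1. Samples are biological replicates by the design text, with an unstated number of plants.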
